A study of Mus musculus with 6 samples.

Results

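The genes described here encode the enzymes, carriers and regulators of glycolysis, pyruvate oxidation and gluconeogenesis, measured in epithelial cells along the mouse colon. They were chosen from a list of 44 symbols that covers the pathway step by step, and all 44 were among the 24346 gene entries of the files. The list groups genes by their function. RNA of these cells was sequenced from the proximal, the middle and the distal part of the colon of mice of the inbred strain C57BL/6J that were wild-type. No mouse had been treated, and neither their ages nor how the epithelial cells were isolated is given in the sources used here. Each of the 3 regions had 2 libraries, 1 from male and 1 from female mice, which makes 6 libraries in all. The number of mice behind a library is not stated, and neither is whether the same mice gave all regions. No 2 libraries share both region and sex. The p-values given here therefore rest on the spread left after region and sex are fitted, with help from other genes. Part of that spread may be technical, and a regional difference that depends on sex would count as spread too.

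Glycolysis splits glucose into pyruvate in the cytosol and yields ATP without oxygen. Pyruvate then either becomes lactate, or enters mitochondria through a carrier and is turned into acetyl-CoA by the pyruvate dehydrogenase complex, which kinases switch off and phosphatases switch on. Gluconeogenesis runs the path backwards with its own enzymes at the irreversible steps, starting with the carboxylation of pyruvate to oxaloacetate. Colonocytes are known for burning butyrate made by gut bacteria, and they also take up and use glucose. Many steps are encoded by several isozyme genes with different tissue patterns.

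Values are FPKM, read fragments scaled by transcript length and by library size, so that levels can be compared between genes. Total FPKM was 546269 to 612818 per library, and depth, estimated from the steps between the lowest values, was 7.83 to 9.94 M fragments. The epithelial markers Epcam and Krt8 were at 743 to 873 and 3318 to 4008 FPKM, so defining genes of the labelled cell type were present in every library. Summed over 7 lymphocyte markers, the level was 53.4 (male) and 22.6 (female) FPKM in proximal, 6.10 and 10.9 in middle and 3.77 and 4.64 in distal colon. The summed level of 7 surface colonocyte markers was 26332 and 15593 in proximal, 11796 and 8707 in middle and 7861 and 7024 in distal colon. That sum was mostly Car1 in the male proximal library (19757 FPKM, against 2225 in the male distal one). Car1, Krt20 and Guca2a were lower in the distal than in the proximal library of both sexes. In the female libraries Car1 went from 6685 to 2989 and Guca2a from 6248.5 to 1148 FPKM. Car4, Slc26a3, Aqp8 and Ceacam20, 4 of the 7, were higher in the distal than in the proximal library of both sexes. In bulk RNA of this kind, fewer cells of a type and less RNA per cell cannot be told apart. Triplets of values below run from proximal through middle to distal colon. Together the 44 genes made up 1.07 to 1.20% of all FPKM in a library.

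A gene was tested if it had at least 1 FPKM in at least 2 libraries, which left 11815 genes and 40 of the 44 members. The other 4 were Hk3, Pfkfb3, Eno2 and G6pc, none above 0.48 FPKM in any library. They encode the white blood cell hexokinase, a bifunctional enzyme that activates phosphofructokinase, the neuronal enolase and the catalytic subunit of liver glucose 6-phosphatase. Of the 40, 37 were at 1 FPKM or more in every library. The exceptions were Hkdc1, Ldhb and Fbp1, each below 1 FPKM in at least 1 distal library. Between distal and proximal colon, limma at an adjusted p under 0.05 called 11 of the 40 kept members, 8 higher and 3 lower in distal colon. Among all genes tested 14.1% were called, 6.47% higher and 7.64% lower. The median log2 difference of the kept members was 0.11, against 0.01 over all genes tested. The count was 5 without the male distal library, 6 without the female distal library and 7 without the male proximal library. Hkdc1, Eno3, Ldhb, Pcx and Pdp1 were called in each of these runs.

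**Figure D1:**
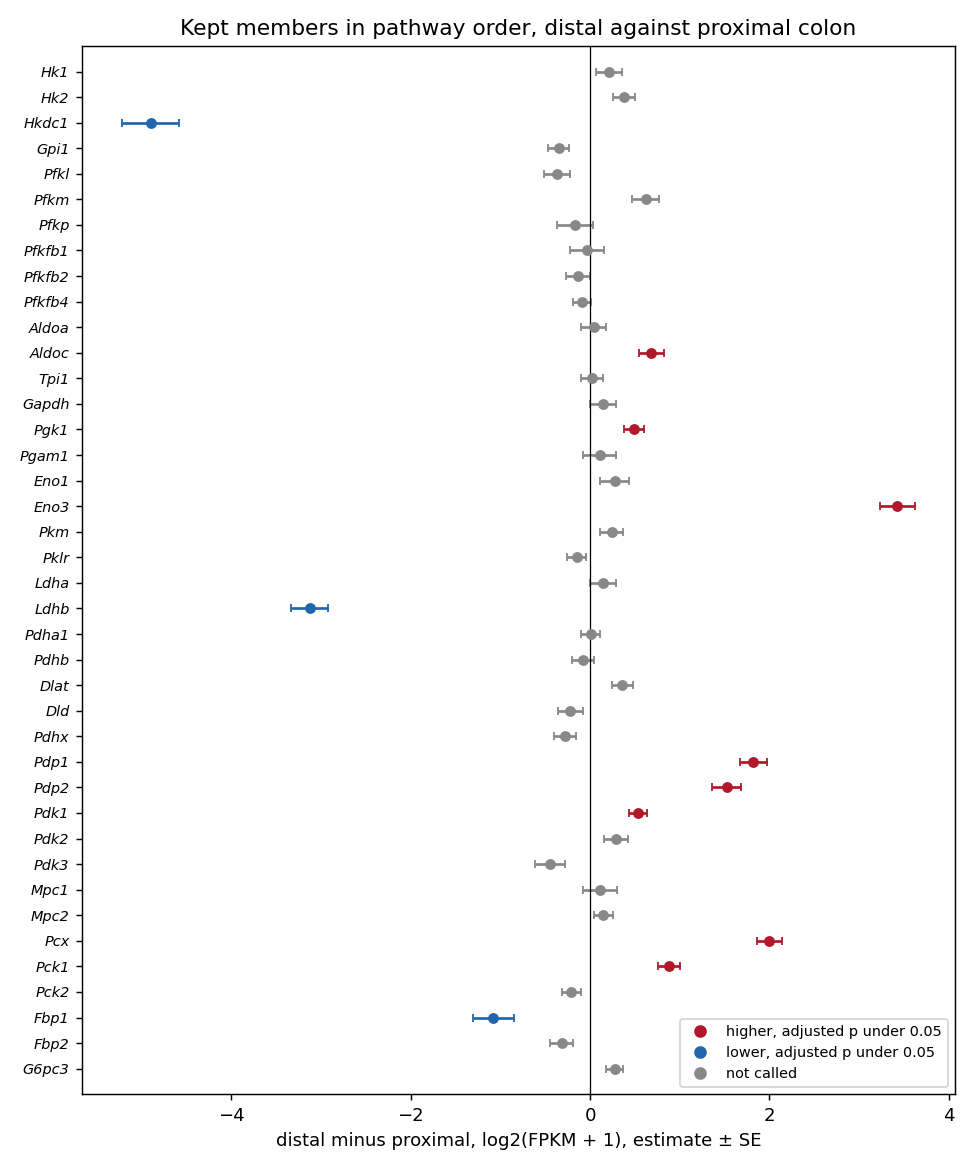
Difference between distal and proximal colon on the log2(FPKM + 1) scale for the 40 kept members in pathway order, with points for the limma estimate and bars for its SE. Red and blue points mark the 8 higher and 3 lower members at an adjusted p under 0.05; most enzymes sit near 0, while Hkdc1 and Ldhb lie far to the left and Eno3 far to the right.

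The sequences just before the start sites of 6 of the called members are printed here, to show the regulatory sequence next to the genes that differed most along the colon. They are the 5 with the largest differences that have an entry in the RefSeq promoter table for GRCm38.p6, the build also named mm10, and Pck1, whose promoter is a textbook model of hormone control. Of the 44 members, 43 had an entry, with 65 start sites in all. The first listed start is shown for Pcx, which has more than 1. Bases inside the GENCODE M21 gene model were left off, so the printed runs of Hkdc1, Pdp2 and Pck1 stop short of the RefSeq start from which positions are counted. The windows are chr10:62422492-62422707 (minus strand) for Hkdc1, chr11:70656926-70657175 (plus) for Eno3, chr6:142507958-142508207 (minus) for Ldhb, chr19:4510222-4510471 (plus) for Pcx, chr8:104591222-104591450 (plus) for Pdp2 and chr2:173152823-173153047 (plus) for Pck1. Each is written 5′ to 3′ on the gene's strand, and capitals mark the letters of a searched motif.
Hkdc1: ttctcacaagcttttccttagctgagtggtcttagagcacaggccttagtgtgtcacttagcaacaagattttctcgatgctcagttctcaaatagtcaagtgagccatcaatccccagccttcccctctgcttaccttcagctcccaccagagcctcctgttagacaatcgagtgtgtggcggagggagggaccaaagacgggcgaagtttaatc
Eno3: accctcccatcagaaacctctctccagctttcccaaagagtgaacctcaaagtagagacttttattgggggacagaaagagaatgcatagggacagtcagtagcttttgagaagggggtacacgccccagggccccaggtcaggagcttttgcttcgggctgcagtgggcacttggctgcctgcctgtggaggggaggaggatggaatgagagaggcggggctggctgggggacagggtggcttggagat
Ldhb: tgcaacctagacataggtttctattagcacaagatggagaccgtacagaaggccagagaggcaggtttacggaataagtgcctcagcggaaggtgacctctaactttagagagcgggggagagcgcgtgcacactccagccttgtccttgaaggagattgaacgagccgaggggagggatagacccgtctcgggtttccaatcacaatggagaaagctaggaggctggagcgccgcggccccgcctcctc
Pcx: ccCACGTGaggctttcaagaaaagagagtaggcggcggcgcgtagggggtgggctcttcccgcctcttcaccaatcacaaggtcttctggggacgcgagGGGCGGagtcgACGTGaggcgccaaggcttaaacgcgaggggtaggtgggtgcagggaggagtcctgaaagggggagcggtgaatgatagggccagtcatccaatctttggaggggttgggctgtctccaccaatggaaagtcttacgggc
Pdp2: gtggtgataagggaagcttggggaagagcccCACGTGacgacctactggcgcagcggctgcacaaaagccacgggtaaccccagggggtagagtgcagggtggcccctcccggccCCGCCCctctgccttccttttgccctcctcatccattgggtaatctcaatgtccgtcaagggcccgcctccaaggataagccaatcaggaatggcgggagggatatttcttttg
Pck1: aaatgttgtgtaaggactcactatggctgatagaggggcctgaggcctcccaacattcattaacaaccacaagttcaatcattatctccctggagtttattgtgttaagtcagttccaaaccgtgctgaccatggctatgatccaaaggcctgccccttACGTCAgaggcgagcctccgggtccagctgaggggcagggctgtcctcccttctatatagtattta

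Both strands of the 250 bases before each start were searched for 5 short motifs: the TATA box TATAAA, the GC box GGGCGG, the E-box CACGTG, the hypoxia response core ACGTG, which also lies inside the E-box, and the cAMP response core ACGTCA. In Pck1 the last of these stood 91 to 86 bases before the start, and a GC box 16 to 11 bases before it lies in the bases left off the printed sequence. An E-box stood 248 to 243 bases before the start of Pcx and 219 to 214 bases before that of Pdp2, each with a GC box nearer the start, and Pcx held a further ACGTG at 140 to 136 bases. Hkdc1, Eno3 and Ldhb, the 3 members with the largest differences, held none of the 5. Among 32851 windows of all genes, 12.4% held the TATA box, 32.7% the GC box, 6.02% the E-box, 16.6% ACGTG and 6.47% ACGTCA. The shares over the 65 member windows were 6.15%, 46.2%, 13.8%, 32.3% and 7.69%, with a median GC content of 58.4% against 52.4% for all windows. Start sites of 1 gene can share bases, so these are descriptions of letters and not of sites in use.

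The first step, the phosphorylation of glucose by hexokinases, changed its makeup along the colon. Hkdc1 (chromosome 10, 62383137 to 62422491, mm10), a hexokinase-like gene that lies next to Hk1 and is known from intestine and liver, was at 67.8, 6.86 and 0.659 FPKM along the male colon. Along the female colon it was at 31.6, 1.82 and 0.522 FPKM. Both proximal libraries were above both middle ones, and both middle ones above both distal ones. In FPKM, the proximal level was 103 times the distal one in the male and 60.6 times in the female libraries. On the log2(FPKM + 1) scale, which understates changes of values near 1, Hkdc1 fell by 4.90 from proximal to distal colon (SE 0.32, limma adjusted p = 0.0023). From proximal to middle colon it fell by 3.33 (SE 0.32, limma adjusted p = 0.024), a call lost without the female middle library (0.17). From middle to distal the difference was -1.57 (limma adjusted p = 0.14).

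Hk1, the hexokinase of most tissues, was at 57.8, 83.1 and 72.2 FPKM along the male colon and 68.9, 69.5 and 74.3 FPKM along the female colon. Hk2, the insulin-responsive and hypoxia-inducible hexokinase, ranged from 25.3 to 37.8 FPKM. Neither passed the test between distal and proximal colon (log2 differences 0.21 and 0.38, limma adjusted p = 0.39 and 0.11). Summed over the 4 genes, hexokinase FPKM was 152 and 128 in the male and female proximal, 120.2 and 96.7 in the middle and 111 and 108 in the distal libraries. Of that sum Hkdc1 held 44.7% (male) and 24.6% (female) in proximal colon, 5.71% and 1.88% in the middle and 0.595% and 0.484% in the distal libraries. Hk1 held the largest share in every library except the male proximal one. The summed lymphocyte markers were also lower in middle and distal than in proximal colon, and their part in the fall of Hkdc1 was not tested.

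The next steps, up to the splitting of the sugar, held 0 called members before the aldolases. Gpi1, which turns glucose phosphate into fructose phosphate, was at 386, 313 and 279.8 FPKM along the male colon and 327, 288 and 278 FPKM along the female colon. The proximal libraries were the highest of each sex, but the difference missed the threshold (log2 difference -0.35, limma adjusted p = 0.12). Pfkl, the liver-type subunit of phosphofructokinase, the main control point of glycolysis, was at 134, 113 and 90.1 FPKM along the male colon and 101, 81.9 and 89.9 FPKM along the female colon. It held 61.8 to 75.1% of the FPKM of its step, ahead of the platelet type Pfkp (22.8 to 34.3%) and the muscle type Pfkm (2.14 to 6.29%). Pfkm went from 3.82 and 5.99 FPKM in the proximal to 7.49 and 8.36 FPKM in the distal libraries, at the edge of the threshold (log2 difference 0.62, SE 0.15, limma adjusted p = 0.051).

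Of the 4 Pfkfb genes, whose bifunctional enzymes make and break the activator of phosphofructokinase, Pfkfb2 was highest. It was at 19.0, 18.7 and 15.2 FPKM along the male colon and 16.4, 15.2 and 16.9 FPKM along the female colon. Pfkfb4 ranged from 10.4 to 13.1 FPKM and Pfkfb1 from 1.05 to 1.41 FPKM. None of the 3 that were tested passed the threshold between any regions, and their largest difference between distal and proximal colon was 0.13 in size on the log2 scale.

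Aldoa, the general aldolase, was the second most abundant member of the list, at 1049, 1102 and 1047 FPKM along the male colon and 1014, 1089.7 and 1076 FPKM along the female colon. Its highest library was 1.09 times its lowest. Aldoc, the brain-type aldolase, was far lower in FPKM but differed between the ends of the colon. It was at 6.86, 10.8 and 13.5 FPKM along the male colon and 9.17, 13.3 and 13.2 FPKM along the female colon, with both proximal values below the other 4. Aldoc rose by 0.68 from proximal to distal colon (SE 0.14, limma adjusted p = 0.030), and the call was lost in 5 of 6 runs that left out a library (adjusted p up to 0.25, the exception being the female proximal library). Of 8 markers of enteric neurons and glia, 7 were at most 1 FPKM in every library and Sox10 was at 0 throughout.

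The steps after the aldolases turn triose phosphate towards pyruvate and yield ATP and NADH, and of the 4 genes described next only Pgk1 was called. Tpi1, which interconverts the triose phosphates, was at 378, 438 and 378 FPKM along the male colon and 388, 400.3 and 400.3 FPKM along the female colon. Gapdh, which makes the first NADH of the pathway, was at 1016, 1081 and 1095 FPKM along the male colon and 983, 1158 and 1119.5 FPKM along the female colon. The mutase gene Pgam1 was at 137, 180.4 and 138 FPKM along the male colon and 143, 132 and 164 FPKM along the female colon. None of these 3 passed the test in any comparison of regions. Pgk1, on the X chromosome, encodes the first ATP-forming enzyme and was at 265, 316 and 359 FPKM along the male colon and 292, 346 and 424 FPKM along the female colon. It was ordered from proximal to distal in both sexes and rose by 0.49 between the ends (SE 0.11, limma adjusted p = 0.044). That call was close to the threshold and was lost without any 1 of the 6 libraries (limma adjusted p up to 0.31).

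Enolase, which forms phosphoenolpyruvate, showed the largest increase of the list. Eno3 (chromosome 11, 70657202 to 70662513), known as the muscle enolase, was at 12.5, 61.0 and 177 FPKM along the male colon. Along the female colon it was at 28.3, 153 and 255 FPKM. The values were ordered in both sexes, and the ranges of proximal, middle and distal libraries did not overlap. In FPKM the distal level was 14.2 times the proximal one in the male and 9.03 times in the female libraries. Eno3 rose by 3.43 from proximal to distal colon (SE 0.20, limma adjusted p = 0.0018) and by 2.3 from proximal to middle colon (SE 0.20, limma adjusted p = 0.024). The second call was lost without the female middle library (limma adjusted p = 0.16). The step from middle to distal colon was 1.13 and missed the threshold (SE 0.20, limma adjusted p = 0.11).

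Eno1, the general enolase, was at 121, 163 and 179 FPKM along the male colon and 146, 146 and 144 FPKM along the female colon. The 2 sexes differed in pattern, and no comparison of regions passed the threshold. The entry Eno1b, a near-identical copy that can exchange reads with Eno1, was at 192, 213 and 119 FPKM along the male colon and 157, 154 and 154 FPKM along the female colon, so the split between both is uncertain. With Eno1b counted in, Eno3 made up 3.8%, 14.0% and 37.3% of enolase FPKM in the male and 8.5%, 33.9% and 46.2% in the female proximal, middle and distal libraries. Muscle tissue is one known source of Eno3. Of 7 muscle markers, Acta2, Myh11, Des, Cnn1 and Ckm were each at most 1 FPKM in every library. The other 2, Acta1 at 68.7 to 139 FPKM and Tagln at 4.15 to 7.19 FPKM, differed by -0.14 (not called) and -0.61 (called) between distal and proximal colon, and their part in the rise of Eno3 was not tested.

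**Figure D2:**
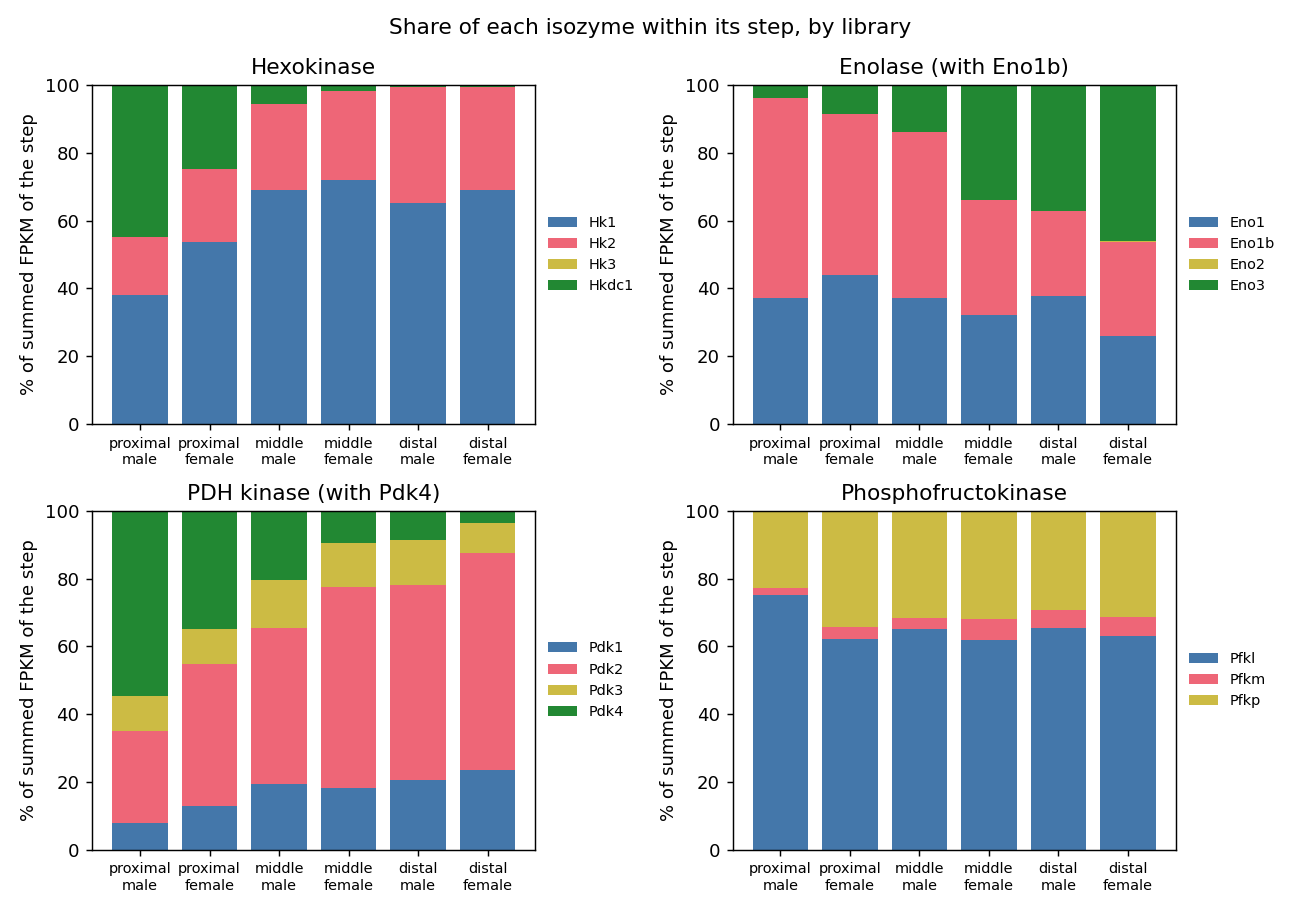
Share of each isozyme in the summed FPKM of its step, in percent, with 1 bar for each library ordered from proximal to distal. Hkdc1 shrinks from 44.7% and 24.6% in the proximal to under 1% in the distal libraries. The shares of Eno3 and Pdk2 grow, that of Pdk4 shrinks, and Pfkl keeps the largest share of phosphofructokinase.

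Pyruvate kinase and lactate dehydrogenase close the path. Pkm, the gene of the general pyruvate kinases, was at 515, 598 and 599 FPKM along the male colon and 555, 619 and 666 FPKM along the female colon. It was lowest in proximal colon in both sexes, but the difference was not past the threshold (log2 difference 0.24, limma adjusted p = 0.27). Its 2 splice forms cannot be told apart in gene-level values. Pklr, the liver and red cell isozyme, was at 36.0 to 42.8 FPKM and 5.53 to 7.67% of the step. Ldha, the subunit that favours lactate formation, was at 827, 849.6 and 865 FPKM along the male colon and 759, 727 and 891 FPKM along the female colon, with no call between regions.

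Ldhb (chromosome 6, 142490249 to 142507957), the heart-type subunit that favours lactate use, fell at the far end. It was at 11.2, 9.47 and 0.260 FPKM along the male colon and 14.9, 9.0 and 1.03 FPKM along the female colon. The values fell at both steps in both sexes, and both distal values were far below the other 4. Ldhb fell by 3.13 from proximal to distal colon (SE 0.20, limma adjusted p = 0.0023). From middle to distal colon the difference was -2.68 (SE 0.20, limma adjusted p = 0.019), and between middle and proximal colon it was -0.45 (limma adjusted p = 0.34). The call between distal and middle colon was lost without the male middle library or either distal one (limma adjusted p up to 0.084). Lactate dehydrogenase FPKM was 98.1 to 98.9% Ldha in the proximal and middle libraries and 99.97% and 99.9% in the male and female distal ones. Lymphocyte markers, summed, were at 6.10 and 10.9 FPKM in the middle libraries, where Ldhb was at 9.47 and 9.0 FPKM, and their part in the fall was not tested.

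No subunit of the pyruvate dehydrogenase complex was called between regions, while both of its activating phosphatases rose. Pdha1, the catalytic subunit that kinases and phosphatases act on, was at 138, 127 and 132 FPKM along the male colon and 147, 153 and 156 FPKM along the female colon. Pdhb, Dlat, Dld and Pdhx, the other subunits, ranged from 80.9 to 99.9, 22.5 to 31.9, 69.3 to 95.0 and 10.6 to 14.4 FPKM. limma called 0 of these 5 members between any regions; between the ends of the colon Dlat alone had an unadjusted p below 0.05 (log2 difference 0.36, adjusted p = 0.11).

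Pdp1 (chromosome 4, 11958184 to 11966452), the calcium-stimulated phosphatase, was at 3.86, 4.19 and 18.9 FPKM along the male colon and 6.64, 7.13 and 22.3 FPKM along the female colon. Proximal and middle values overlapped, and both distal values were well above them. The gene rose by 1.82 from proximal to distal (SE 0.15, limma adjusted p = 0.0032) and by 1.73 from middle to distal colon (SE 0.15, limma adjusted p = 0.026). Pdp2 (chromosome 8, 104591451 to 104599026), the other phosphatase, was at 1.86, 6.26 and 8.79 FPKM along the male colon and 2.82, 7.55 and 8.19 FPKM along the female colon. Pdp2 rose by 1.25 from proximal to middle colon (SE 0.17, limma adjusted p = 0.031) and by 1.52 from proximal to distal colon (SE 0.17, limma adjusted p = 0.0062). Without the male distal library the last value was 0.0503. The call of Pdp1 between distal and middle colon was lost without any 1 of the middle or distal libraries (limma adjusted p up to 0.18), and that of Pdp2 between middle and proximal colon without either middle library (up to 0.22). Summed, phosphatase FPKM was 5.71 and 9.45 in the male and female proximal, 10.4 and 14.7 in the middle and 27.7 and 30.5 in the distal libraries.

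Of the 3 inhibitory kinases on the list, Pdk1 was called. Pdk2, the most abundant of the 3 members, was at 46.8, 43.9 and 55.7 FPKM along the male colon and 47.2, 59.9 and 60.0 FPKM along the female colon. Pdk1, a target of the hypoxia response, was at 13.7, 18.6 and 19.9 FPKM along the male colon and 14.7, 18.3 and 22.1 FPKM along the female colon, lowest in proximal colon in both. Pdk1 rose by 0.53 between the ends (SE 0.10, limma adjusted p = 0.028), a call lost without any 1 of the 6 libraries (limma adjusted p up to 0.19). Pdk3 ranged from 8.29 to 17.9 FPKM with no call. Pdk4, the fasting-induced kinase, is not on the list. With it, total kinase FPKM was 173 and 113 in the proximal and 96.7 and 93.8 in the distal libraries. Of that total, Pdk2 grew from 27.0% and 41.9% to 57.6% and 63.9%, and Pdk4 shrank from 54.7% and 34.8% to 8.61% and 3.73%. Pdk2 itself was not called between the ends (log2 difference 0.29, limma adjusted p = 0.22). Mpc1 and Mpc2, the 2 subunits of the mitochondrial pyruvate carrier, were not called. Mpc1 was at 153, 132 and 129 FPKM along the male colon and 126, 163 and 175 FPKM along the female colon, and Mpc2 ranged from 96.4 to 113 FPKM.

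Pcx and Pck1, which encode the first 2 enzymes of gluconeogenesis, rose from proximal to distal colon. Pcx (chromosome 19, 4510472 to 4621752), which makes oxaloacetate from pyruvate and also refills the citric acid cycle, was at 14.1, 39.9 and 70.3 FPKM along the male colon and 22.2, 52.8 and 77.7 FPKM along the female colon. The 3 regions did not overlap. Pcx rose by 2.0 from proximal to distal colon (SE 0.14, limma adjusted p = 0.0023) and by 1.32 from proximal to middle colon (SE 0.14, limma adjusted p = 0.025). The second call was lost without either middle library (limma adjusted p up to 0.19), and the step from middle to distal colon was 0.68 (limma adjusted p = 0.14). Pck1 (chromosome 2, 173153048 to 173159273), the cytosolic enzyme that turns oxaloacetate into phosphoenolpyruvate, was at 142, 158 and 262 FPKM along the male colon and 186, 255 and 343 FPKM along the female colon. The distal level was 1.85 times the proximal one in both sexes. Pck1 rose by 0.88 (SE 0.13, limma adjusted p = 0.012), a call lost without either distal library (limma adjusted p up to 0.13). Its mitochondrial counterpart Pck2 was at 12 to 14.3 FPKM, highest in the proximal libraries, with no call.

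Of the fructose bisphosphatases, Fbp2, the muscle isozyme, was the abundant one, at 181, 146 and 127 FPKM along the male colon and 148, 139.8 and 135 FPKM along the female colon. Fbp2 made up 97.3 to 99.3% of both genes and was not past the threshold (log2 difference -0.32, limma adjusted p = 0.17). Fbp1, the liver isozyme, was at 3.52, 1.87 and 0.896 FPKM along the male colon and 4.12, 1.43 and 1.73 FPKM along the female colon. Fbp1 fell by 1.08 between the ends (SE 0.23, limma adjusted p = 0.036), and the call was lost without either proximal or either distal library (limma adjusted p up to 0.25) and with quantile normalization. For the last step, G6pc3, the ubiquitous glucose phosphatase, was at 44.1, 44.2 and 51.4 FPKM along the male colon and 41.0, 45.8 and 51.9 FPKM along the female colon. Its values were ordered from proximal to distal in both sexes, with a log2 difference of 0.27 that missed the threshold (limma adjusted p = 0.13). G6pc, the liver and kidney gene, was at 0.0611 FPKM in the male proximal library and listed at 0 in the other 5.

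**Figure D3:**
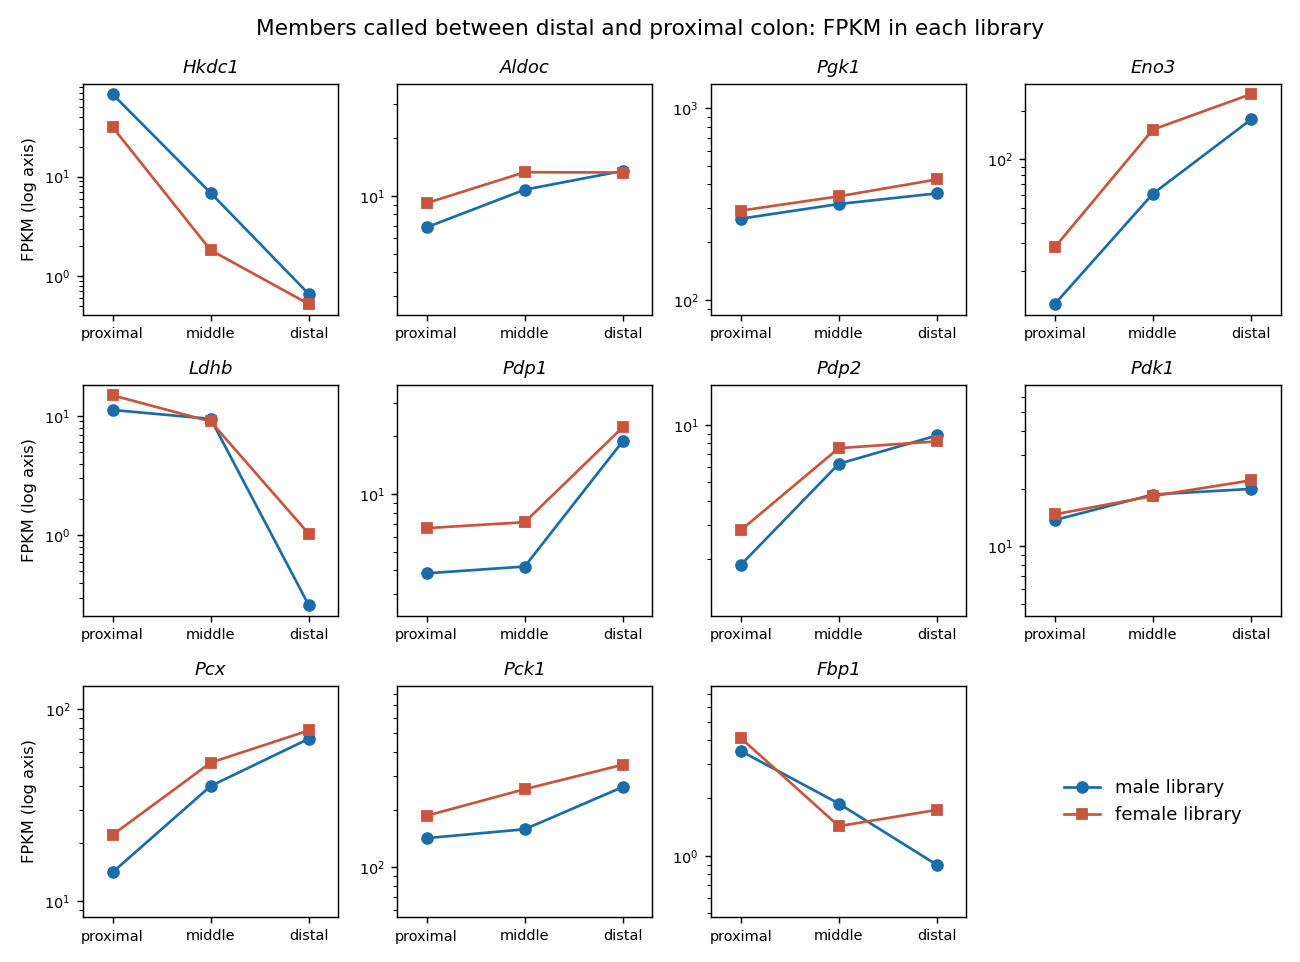
FPKM on a log axis for the 11 members called between distal and proximal colon, with 1 point for each library, lines joining the 3 regions of a sex, circles for male and squares for female. Hkdc1 falls and Eno3 and Pcx rise at both steps, Pdp2 rises mainly at the first, and Ldhb and Pdp1 move at the second.

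Each step along the colon was also compared. Between middle and proximal colon limma called 4 kept members, Eno3, Pcx and Pdp2 higher and Hkdc1 lower, where 2.45% of all genes tested were called (1.19% higher and 1.25% lower). Between distal and middle colon it called 2, Pdp1 higher and Ldhb lower, where 0.499% of all genes tested were called (0.11% higher and 0.389% lower). Without the male proximal library 4 members were called there, with Eno3 and Pcx added, and without the female one 5, with Hkdc1 added as well. These comparisons share libraries with each other and with that of the ends, so their results are not separate. Pdp1 differed by 0.09 between middle and proximal colon and by 1.73 between distal and middle colon, while Pdp2 differed by 1.25 and 0.27. Ldhb differed by -0.45 and -2.68 in these 2 comparisons, and Hkdc1 by -3.33 and -1.57. Whether the first and second differences of a gene differ from each other was not tested. A rise at both steps in both sexes was seen for 10 of the 40 kept members (25.0%, against 11.3% of all genes tested). A fall at both steps in both sexes was seen for 6 (15.0%, against 11.3%).

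**Figure D4:**
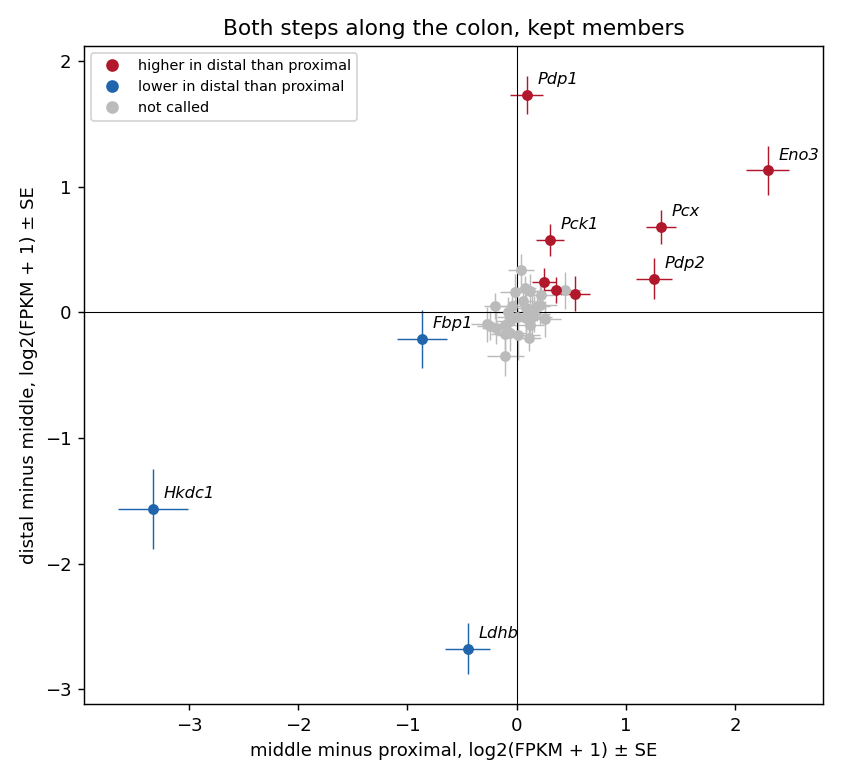
Difference between middle and proximal colon (horizontal) against that between distal and middle colon (vertical) for the 40 kept members, on the log2(FPKM + 1) scale with SE bars. Both axes use the middle libraries; Pdp1 and Ldhb lie along the vertical axis, Pdp2 and Fbp1 nearer the horizontal one, and Eno3, Pcx and Hkdc1 move on both.

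Between the sexes limma called 0 of the 40 kept members, against 0.0423% of all genes tested (0.00846% higher and 0.0339% lower in female libraries). At an unadjusted p under 0.05 there were 7 kept members. The share of all genes at that unadjusted level was not computed, so the 7 have no background to stand against. The 7 were Hkdc1 and Pdk3, with lower fitted values in the female libraries, and Pfkm, Eno3, Pdp1, Pcx and Pck1, with higher ones. Eno3 was higher in the female library of all 3 regions (fitted difference 0.99, limma adjusted p = 0.33), and Hkdc1 lower in all 3 (-0.89, limma adjusted p = 0.42). Each sex had 3 libraries from 3 regions, so these are not replicates of a sex.

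Routes that feed or leave the pathway were examined in lists chosen by function, with earlier results of these data known. Their counts stand against 6.47% higher and 7.64% lower among all genes tested. Of 17 genes of the citric acid cycle only the citrate synthase gene Cs was called between distal and proximal colon. It was at 262, 359 and 433 FPKM along the male colon and 315, 371 and 446 FPKM along the female colon (log2 difference 0.61, limma adjusted p = 0.030). Of 10 pentose phosphate genes, 0 were higher and 3 lower in distal colon. Taldo1, a transaldolase, fell by 0.87, H6pd by 0.73 and the transketolase gene Tkt by 0.48. Of 9 genes for the entry of fructose and galactose, 2 were lower, the galactokinase gene Galk1 (by 0.90) and the triokinase gene Tkfc (by 0.76). Among 13 kept glycogen genes 1 was higher, the glycogenin gene Gyg (0.88), and the phosphoglucomutase genes Pgm2 and Pgm1 fell by 0.93 and 0.63. Of 6 kept transporters of glucose and lactate, Slc16a1, a carrier of lactate and butyrate, and Slc5a1, the sodium-coupled glucose transporter, rose by 0.58 and 0.45. Pdk4, the kinase gene named above that is not on the main list, fell by 3.26.

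Redox shuttles and regulators moved in both directions. Among 12 kept genes of malate and redox shuttles 1 was higher and 4 were lower in distal colon. Among all genes tested 6.47% were higher and 7.64% lower, which also stands beside the count of regulators below. Me1, the cytosolic malic enzyme that makes pyruvate and NADPH, was at 15.3, 2.39 and 0.0416 FPKM along the male colon and 6.70, 0.629 and 0.0659 FPKM along the female colon and fell by 3.41 (SE 0.32, limma adjusted p = 0.0042). Slc25a12, an aspartate-glutamate carrier, rose by 1.21, from 6.79 and 7.76 to 16.8 and 19.7 FPKM. Gpd1 and Slc25a10 fell by 1.02 and 0.92, and the fourth lower gene was Slc25a1, named after its values were seen. Of 23 transcriptional regulators 4 were higher and 4 lower. Hif1a, the oxygen-regulated factor that drives glycolytic genes, was at 8.13, 32.8 and 46.7 FPKM along the male colon and 24.5, 33.6 and 51.4 FPKM along the female colon (log2 difference 1.71, SE 0.36, limma adjusted p = 0.033). Ppargc1a, a coactivator of mitochondrial and gluconeogenic genes, rose by 0.93. The fatty acid sensors Ppara and Pparg fell by 2.07 and 1.08. The median log2 differences of the lists for these routes and regulators lay between -0.21 and 0.26 for distal against proximal colon, against 0.01 over all genes tested.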

How the data were processed

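The files hold FPKM per gene, computed and deposited by the authors from stranded mRNA libraries. Tools named in the submitters' processing notes are Cuffdiff 2.2.1, TopHat2 2.1.1, SAMtools 0.1.18 and Bowtie2 2.2.8, and the build is mm10; for settings and annotation there is nothing in the sources used here. Depth was estimated from values under 0.2 FPKM of genes with 1 transcript over 1500 bases, assuming fragments of 200 bases, where 78.6 to 83.6% of values lay within 0.15 of a whole fragment. No count test was run on FPKM.

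Values were taken as log2(FPKM + 1). limma 3.58.1 in R 4.3.3 fitted region and sex over the 6 libraries with a mean-variance trend, leaving 2 residual degrees of freedom, and p-values were adjusted by Benjamini-Hochberg over 11815 genes. The fit was tested on simulated data in which 200 genes were changed in distal colon. Between distal and proximal colon, 8.76% of the calls there were unchanged genes, above the 0.05 that the threshold implies. The data gave 1668 calls in that comparison, so the share in the data may differ. The members and lists were chosen with earlier results of these data known. Every member is accounted for, with all 6 values for those called between regions and for the top isozyme of each step; other lists name up to 4 called genes by size. Coordinates are from GENCODE M21 and promoters from RefSeq. Figures were drawn with matplotlib 3.10.9 in Python 3.11.15. Alternatives were another pseudocount, filter, scaling, variance model or sex term, and each library left out. Some genes of the marker and isozyme lists are not reported here.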

Additional observations from a re-analysis of the deposited data

Results flagged for a closer look

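Mpc1, a subunit of the mitochondrial pyruvate carrier, moved in opposite directions in the sexes between proximal and distal colon. It went from 153 to 129 FPKM in the male and from 126 to 175 FPKM in the female libraries, so the male minus female difference of the log2 changes was -0.71. With 1 library of each sex in a region this difference was not tested. It was the 1 kept member, of 8 with opposite signs, whose change reached 0.2 in size in both sexes, a minimum set after the data were seen. The other 32 kept members had the same sign in both sexes, and the share of all genes tested with the same sign was not computed.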

How the results depend on the processing

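No call of a member changed direction under any alternative run. The calls named for genes outside the members were not followed through these runs. Between distal and proximal colon, Hkdc1, Eno3, Ldhb, Pcx and Pdp1 were called under all 13 alternatives. The count of members called there was 8 to 11 under the alternatives that kept all libraries, and 5 to 9 when a library was left out, while all genes called ranged from 334 to 1518. Between middle and proximal colon limma called 0 members without a filter and 0 with sex left out of the model (8 and 7 at an unadjusted p under 0.05), and 0 to 4 with a library left out. All genes called there were 4 without a filter, 187 without a variance trend, 24 with sex left out and 0 to 777 with a library left out, against 289 as reported. Between distal and middle colon limma called 0 members without a filter (7 at an unadjusted p under 0.05), 1 with sex left out and 0 to 5 with a library left out. All genes called there were 2, 29 and 17 under the same 3 settings and 0 to 426 with a library left out, against 59 as reported. Without a filter more genes are tested, and the cause of the other shifts was not tested. The member counts at an unadjusted p stand beside many genes at that level. Between middle and proximal colon these were 2592 without a filter and 1848 of 11815 with sex left out. Between distal and middle colon they were 1767 without a filter. Between distal and proximal colon the calls of Aldoc, Pgk1 and Fbp1 were lost without a filter. With sex left out those of Aldoc, Pgk1 and Pck1 were lost, and without a variance trend that of Pgk1. The sex term already acts as a block that joins the 3 regions of a sex, the fit with sex left out is the one without it, and the labels carry no other replicate numbers. With 2 libraries a region, the spread rests on few values, and the smallest difference called among members was 0.49 on the log2 scale.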
